A study of Mus musculus with 10 samples.

Results

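The genes described are 8 whose enzymes, electron carrier or transporter serve energy metabolism in germ cells: Slc2a3, Gapdhs, Pgk2, Ldhc, Pdha2, Cyct, Gk2 and Fbp1. They were found by exact gene symbol in the annotation deposited with the arrays, each by its brightest transcript cluster (a set of probes for 1 gene), and make up 8 of the 20174 genes that could be tested. Their levels were followed through the establishment in culture of spermatogonial stem cells, the cells from which spermatogenesis is renewed. RNA from 5 groups was hybridised to 10 Affymetrix Mouse Gene 1.0 ST arrays, with 2 arrays in each group. The 0 week group held testis cells of adult DBA/2 mice taken by magnetic sorting for CD9, a membrane protein that spermatogonial stem cells share with several other cell types. The groups of 1, 2 and 3 weeks held such cells after that time in an Iscove-based medium with FGF2, GDNF and a low share of fetal bovine serum, and the last group held GS cells (germline stem cells, the established long-term culture) of the same strain. No genotype or transgene is named for any group, and the labels name no feeder cells. All groups are labelled as spermatogonial stem cells. Nothing in the labels says that the arrays of a group came from separate mice or cultures, so the p-values below measure the spread between arrays, which may be technical.

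Germ cells use their own forms of several enzymes that other cells share. Pgk2, Pdha2 and Gk2 are intronless autosomal copies of the X-linked genes Pgk1, Pdha1 and Gk, and the X chromosome is silenced during meiosis, when such copies are known to come on. Ldhc and Gapdhs supply late steps of glycolysis in germ cells, and Cyct encodes the testis form of cytochrome c. Fbp1 and Slc2a3 are not restricted to germ cells: Fbp1 is best known as a liver and kidney enzyme of glucose synthesis, and Slc2a3 as a neuronal glucose transporter.

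Of the 8 genes, 7 had an entry in the RefSeq table of promoter windows (build GRCm38.p6, 250 bases before to 50 after each start), and Slc2a3 had none. The 250 bases before the start are printed 5′ to 3′ for Ldhc (chr7:46861013-46861262, plus strand, the upstream of its 2 starts), Pgk2 (chr17:40208610-40208859, minus strand), Gk2 (chr5:97457024-97457273, minus strand) and Fbp1 (chr13:62888283-62888532, minus strand), the 4 genes whose window held the AACNGNC motif described below. Capitals mark every match, on either strand, to 6 searched motifs. For the cAMP response element these were TGACGTCA, its full form, and the shared part of it, which is TGACG. The MYB motif was searched as AACNGNC and part of the RFX motif as GTTGCC. The remaining motifs were the GC box with the letters GGGCGG and the TATA box with the letters TATAAA.
Ldhc: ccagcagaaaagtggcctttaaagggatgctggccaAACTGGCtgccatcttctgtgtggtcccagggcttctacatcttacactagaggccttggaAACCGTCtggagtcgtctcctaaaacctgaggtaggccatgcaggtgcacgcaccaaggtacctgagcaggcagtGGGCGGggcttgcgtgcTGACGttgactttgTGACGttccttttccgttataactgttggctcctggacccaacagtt
Pgk2: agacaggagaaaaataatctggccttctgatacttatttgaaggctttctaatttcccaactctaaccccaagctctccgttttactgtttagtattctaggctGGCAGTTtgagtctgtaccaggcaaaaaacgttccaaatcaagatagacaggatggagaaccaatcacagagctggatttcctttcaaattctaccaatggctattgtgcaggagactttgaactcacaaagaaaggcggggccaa
Gk2: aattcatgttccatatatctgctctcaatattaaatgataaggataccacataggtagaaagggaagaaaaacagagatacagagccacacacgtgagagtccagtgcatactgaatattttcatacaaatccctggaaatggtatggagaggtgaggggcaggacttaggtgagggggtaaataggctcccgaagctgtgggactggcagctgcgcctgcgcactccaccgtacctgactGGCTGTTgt
Fbp1: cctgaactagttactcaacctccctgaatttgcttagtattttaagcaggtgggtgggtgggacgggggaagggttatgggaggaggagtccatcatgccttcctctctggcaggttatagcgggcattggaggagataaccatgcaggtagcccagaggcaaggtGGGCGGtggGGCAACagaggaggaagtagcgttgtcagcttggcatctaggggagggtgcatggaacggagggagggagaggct
Over the whole windows the AACNGNC motif was present in 4 of the 7 genes with a window, the 4 printed, and in 36% of the 27025 genes of the table. The Fbp1 match lies after the start, outside the bases printed, at positions 28 to 34. Ldhc held TGACG in 2 places, beginning at positions -61 and -47 from the start, and Gapdhs held it after its start, against 23% of all genes. The full TGACGTCA was in the window of none of the 7, and in 2.03% of all genes. GGGCGG was found in Ldhc and Fbp1 (38.2% of all genes), GTTGCC in Fbp1 (14.1%) and TATAAA in Pdha2 (15.7%). These are matches of letters and not measured binding sites.

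Signals are given on the linear scale as deposited, and changes as differences of log2 group means ± SE from the limma fit, with Benjamini-Hochberg adjusted p-values over all genes and 0.05 as the threshold. Replicate arrays correlated at r = 0.991 to 0.998 across genes, and arrays of different groups at 0.707 to 0.984. No background level comes with the signals. The 1241 clusters of odorant and vomeronasal receptor genes, called chemoreceptors below, were therefore used as a reference for genes not known to be at work in these cells: their median lay at 47.5 to 78.4 per array and their 95th percentile at 102.7 to 212.5, highest at 3 weeks. The sum of 24 spermatid markers was 44664 to 46675 in the 0 week arrays and 1863 to 2404 in the cultured and GS arrays. That of 9 Leydig cell markers was 7194 to 7200 against 586 to 866, and that of 16 markers of undifferentiated spermatogonia was 2837 to 2849 at 0 weeks and 11904 to 11966 in GS cells. Signal of spermatid and Leydig cell markers was thus present in the sorted cells beside that of the labelled cell type. In such bulk samples fewer cells of a type and less RNA per cell cannot be told apart.

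All 8 genes had their highest signal in the sorted cells and fell by the end of the 1st week in culture. The fall passed for 8 of 8, where 27.5% of all genes were called lower in that comparison, and their median change was -5.00 against -0.04 over all genes. At 0 weeks all 8 lay above the 95th percentile of the chemoreceptors in both arrays. At 1 week Slc2a3 was the only one that did so in both arrays, and the other 7 did so in neither. A cultured signal within the chemoreceptor range is not shown to be above background, so the falls of these 7 are lower bounds and their sizes have no order. All 8 were also lower at 2 weeks, at 3 weeks and in GS cells than at 0 weeks (background 21.3%, 23.9% and 20.4% called lower). The chemoreceptors themselves changed by a median of -0.20 in the 1st week, with a 5th to 95th percentile range of -0.62 to -0.01.

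**Figure D1:**
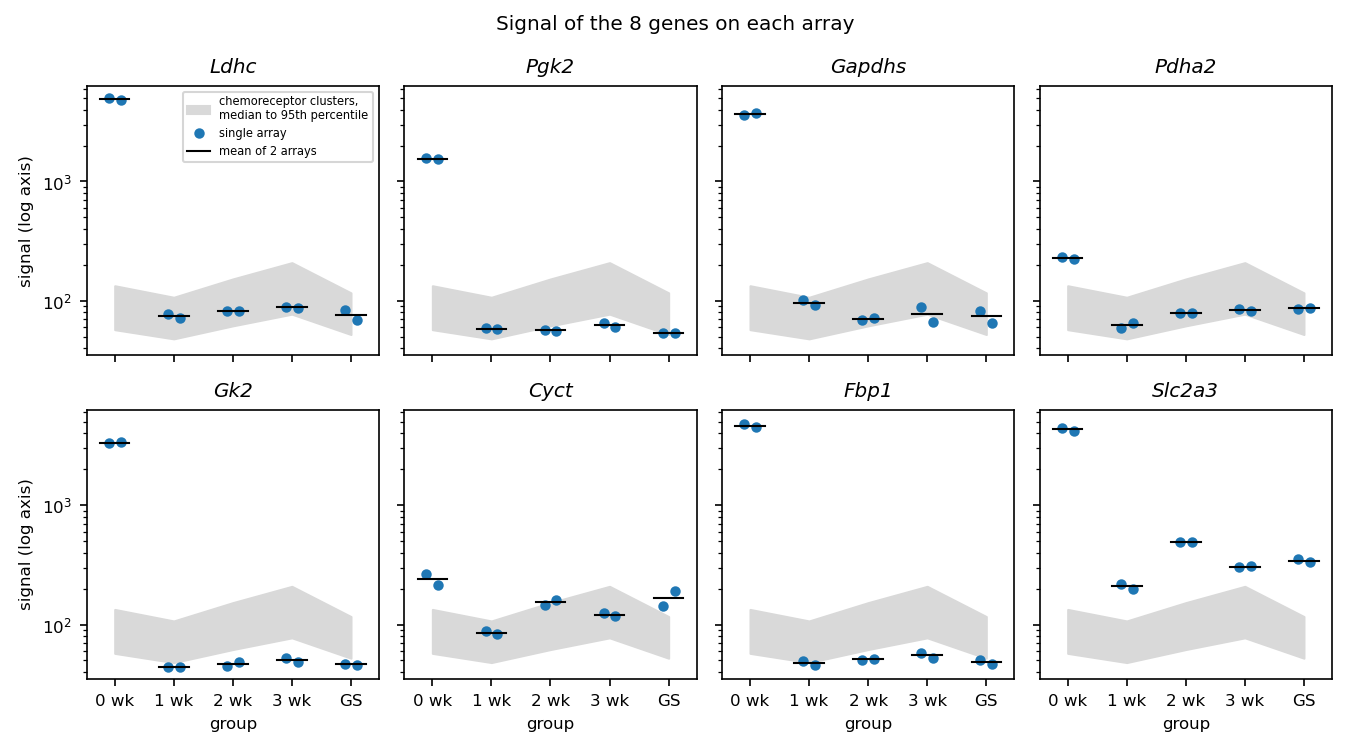
Signal (log axis) of each gene on each array, by group, with bars for the mean of 2 arrays and a grey band from the median to the 95th percentile of the 1241 chemoreceptor clusters. All 8 genes stand above the band at 0 weeks, and Slc2a3 alone stays above it in every group.

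Slc2a3 encodes GLUT3, a facilitative glucose transporter with high affinity, and is the entry point of glucose among these genes. Its signal was 4469 and 4185 in the 0 week arrays, 219.0 and 198.5 at 1 week, 492.0 and 490.4 at 2 weeks, 300.8 and 311.5 at 3 weeks, and 353.2 and 333.8 in GS cells. No 2 groups overlapped: the sorted cells were highest, the 2 week arrays came next and the 1 week arrays were lowest. The 1st week brought a 20.7-fold fall (-4.37 ± 0.07, adjusted p = 5e-11). From 1 to 2 weeks the gene rose 2.36-fold (1.24 ± 0.07, adjusted p = 4.3e-07), above the 95th percentile of the chemoreceptor changes in that step (0.83). From 2 to 3 weeks it fell 1.60-fold (-0.68 ± 0.07, adjusted p = 0.00039), while the chemoreceptors moved up by a median of 0.29. GS cells did not differ from 3 weeks at the threshold (0.17 ± 0.07, adjusted p = 0.095), and under quantile normalization the sign turned and passed (-0.26, adjusted p = 0.033). They were lower than at 2 weeks (-0.52 ± 0.07, adjusted p = 0.0012) and higher than at 1 week (0.72 ± 0.07, adjusted p = 2.5e-05). The difference from 2 weeks lay within the chemoreceptor range of that comparison (5th to 95th percentile -0.59 to -0.01). That from 1 week was above their 95th percentile (0.34). Slc2a3 was the only one of the 8 for which 3 of the 4 neighbouring steps in the order of its levels passed.

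Gapdhs encodes the sperm form of glyceraldehyde-3-phosphate dehydrogenase, which is tethered to the fibrous sheath of the sperm tail. It measured 3606 and 3778 at 0 weeks, 100.7 and 91.99 at 1 week, 68.81 and 72.19 at 2 weeks, 89.42 and 66.46 at 3 weeks, and 82.61 and 65.39 in GS cells. The 0 week arrays stood far above the rest, and the 3 week and GS arrays overlapped with each other and with those of 2 weeks. It fell 38.3-fold in the 1st week (-5.26 ± 0.14, adjusted p = 6.8e-10). With the mean of its clusters in place of the brightest, that change was -2.66. A further fall from 1 to 2 weeks passed (-0.45 ± 0.14, adjusted p = 0.025), in a step in which the chemoreceptors moved up by a median of 0.30. That call was lost without 1 week replicate 1 (-0.38, adjusted p = 0.12), without 2 weeks replicate 1 (-0.42, adjusted p = 0.12), without 2 weeks replicate 2 (-0.48, adjusted p = 0.072) and with the mean of both clusters of the gene (-0.24, adjusted p = 0.063). The second Gapdhs cluster lay at 58.5 to 67.0 in all 10 arrays, inside the chemoreceptor range, and did not change at the threshold in any of the 10 pairs of groups (-0.06 ± 0.07 for the 1st week, adjusted p = 0.49).

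Pgk2, the phosphoglycerate kinase of meiotic and later germ cells, measured 1580 and 1535 at 0 weeks. It then lay at 58.79 and 58.39 at 1 week, 56.49 and 56.43 at 2 weeks, 65.49 and 60.92 at 3 weeks, and 54.18 and 53.50 in GS cells. The sorted cells were high and the other 8 arrays lay within a narrow band, with 3 weeks at its top and GS cells at its bottom. The 1st week fall was 26.6-fold (-4.73 ± 0.06, adjusted p = 2.2e-11). GS cells were lower than 3 weeks (-0.23 ± 0.06, adjusted p = 0.016) in a step in which the chemoreceptors moved down by a median of -0.49. That call was lost without 3 weeks replicate 1 (-0.18, adjusted p = 0.092), without GS cells replicate 2 (-0.22, adjusted p = 0.053), with quantile normalization (-0.05, adjusted p = 0.56) and in a fit of those 2 groups alone (adjusted p = 0.11).

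Ldhc encodes the lactate dehydrogenase subunit of spermatocytes, spermatids and sperm, which interconverts pyruvate and lactate. The 0 week arrays gave 4980 and 4829, those of 1 week 78.13 and 72.32, those of 2 weeks 82.31 and 81.71, those of 3 weeks 89.64 and 86.77, and those of GS cells 83.93 and 69.11. Only the sorted cells stood apart, and the 2 GS arrays spanned most of the range of the cultured groups. Ldhc fell 65.2-fold in the 1st week (-6.03 ± 0.09, adjusted p = 3.3e-11). No step between cultured groups passed, with adjusted p of 0.29 for 2 weeks against 1 week, 0.43 for 3 weeks against 2 weeks and 0.087 for GS cells against 3 weeks (-0.21 ± 0.09). The last of these passed without GS cells replicate 1 (-0.35, adjusted p = 0.0069), with median scaling (adjusted p = 0.022), with cyclic loess (adjusted p = 0.0019) and with a replicate block (adjusted p = 0.04). The 3 week cells exceeded those of 1 week by 0.23 (adjusted p = 0.051), which passed with median scaling (adjusted p = 0.022), cyclic loess (adjusted p = 0.0024) and a replicate block (adjusted p = 0.021). The chemoreceptor medians of these 2 comparisons were -0.49 and 0.60.

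Pdha2 encodes the testis E1 alpha subunit of pyruvate dehydrogenase, the complex that feeds pyruvate into the mitochondrial citrate cycle. Its signal was 233.1 and 223.7 at 0 weeks, 59.46 and 64.95 at 1 week, 79.82 and 79.17 at 2 weeks, 85.21 and 81.97 at 3 weeks, and 85.29 and 87.91 in GS cells. The sorted cells were highest and the 1 week arrays lowest, without overlap with any other group. It fell 3.67-fold in the 1st week (-1.88 ± 0.07, adjusted p = 5.5e-09). It then rose from 1 to 2 weeks (0.36 ± 0.07, adjusted p = 0.0017) and stood higher than at 1 week in the 3 week cells (0.43 ± 0.07, adjusted p = 0.00043) and in GS cells (0.48 ± 0.07, adjusted p = 0.00027). The rise at 2 weeks was close to the median chemoreceptor change of that step (0.30), the difference at 3 weeks was under theirs (0.60), and that in GS cells was above their 95th percentile (0.34). In no cultured or GS array was Pdha2 above the 95th percentile of the chemoreceptors.

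Cyct encodes the testis cytochrome c, which carries electrons in the respiratory chain of spermatocytes, spermatids and sperm. It was measured at 266.2 and 212.9 at 0 weeks, 87.82 and 83.63 at 1 week, 145.0 and 162.1 at 2 weeks, 124.6 and 117.4 at 3 weeks, and 144.2 and 192.6 in GS cells. The arrays of 0 weeks were highest and those of 1 week lowest, while the GS arrays overlapped with those of 2 weeks and spanned a wide range. The 1st week fall was 2.78-fold (-1.47 ± 0.14, adjusted p = 8.3e-06). A rise from 1 to 2 weeks followed (1.79-fold, 0.84 ± 0.14, adjusted p = 0.0007), close to the 95th percentile of the chemoreceptor changes (0.83). At 3 weeks the gene was still higher than at 1 week (0.50 ± 0.14, adjusted p = 0.012), a call lost without 1 week replicate 2 (adjusted p = 0.062) or 3 weeks replicate 1 (adjusted p = 0.068) and a change under the chemoreceptor median of 0.60. GS cells exceeded 3 weeks (0.46 ± 0.14, adjusted p = 0.024), in the opposite direction to the chemoreceptors. This call was lost in 7 of 14 alternatives, among them each fit without 3 weeks replicate 1 (0.51, adjusted p = 0.064), 3 weeks replicate 2 (0.42, adjusted p = 0.099) or GS cells replicate 2 (0.25, adjusted p = 0.16). GS cells remained below the sorted cells (-0.51 ± 0.14, adjusted p = 0.012), which was lost without 0 weeks replicate 1 (-0.35, adjusted p = 0.12) or GS cells replicate 1 (-0.31, adjusted p = 0.083). Both GS arrays lay above the 95th percentile of the chemoreceptors, as did 1 of the 2 arrays at 2 weeks.

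Gk2 encodes a testis glycerol kinase, which phosphorylates glycerol. The 0 week arrays gave 3296 and 3367, and the later ones 44.36 and 44.23 at 1 week, 44.61 and 48.64 at 2 weeks, 52.82 and 48.20 at 3 weeks, and 47.08 and 45.53 in GS cells. The sorted cells were 75.2-fold above 1 week (-6.23 ± 0.07 for 1 week minus 0 weeks, adjusted p = 2.2e-11), and all 8 later arrays lay below the median of the chemoreceptors on the same array. The 3 week arrays were higher than those of 1 week by 0.19 ± 0.07 (adjusted p = 0.047), a value under the chemoreceptor median of 0.60 and a call that 10 of 14 alternatives removed. Among these were the fits without 1 week replicate 1 (adjusted p = 0.11), 1 week replicate 2 (adjusted p = 0.14) or 3 weeks replicate 1 (adjusted p = 0.25), and quantile normalization, which gave -0.03.

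Fbp1 encodes fructose-1,6-bisphosphatase, which removes a phosphate from fructose 1,6-bisphosphate in glucose synthesis. It gave 4777 and 4500 at 0 weeks, 49.90 and 45.82 at 1 week, 50.20 and 51.86 at 2 weeks, 58.21 and 52.43 at 3 weeks, and 50.33 and 47.16 in GS cells. The later arrays lay close together, far under the sorted cells. The 1st week fall was 97.0-fold (-6.60 ± 0.08, adjusted p = 2.2e-11). The 3 week arrays exceeded those of 1 week by 0.21 ± 0.08 (adjusted p = 0.045), under the chemoreceptor median of 0.60, and 6 of 14 alternatives removed the call. Among these were the fits without 1 week replicate 2 (adjusted p = 0.24) or 3 weeks replicate 1 (adjusted p = 0.25), and quantile normalization, which gave -0.03.

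In the order of group means, the drop from the sorted cells to the next group passed for all 8 genes. For Ldhc, Pgk2, Gapdhs, Gk2 and Fbp1 no 2 neighbours among the cultured and GS groups differed at the threshold. For Gapdhs, 3 weeks minus 1 week (-0.32, adjusted p = 0.076) was -0.53 without 3 weeks replicate 1. It passed with quantile normalization (adjusted p = 0.0052), median scaling (adjusted p = 0.038) and a replicate block (adjusted p = 0.034). Gapdhs in GS cells minus 1 week (-0.39, adjusted p = 0.053) passed as lower in 7 of 14 alternatives. For Pdha2 only the lowest step, from 2 weeks to 1 week, passed, and for Cyct only that from 3 weeks to 1 week (0.50 ± 0.14, adjusted p = 0.012). By count, 3 of the 8 rose from 1 to 2 weeks (Slc2a3, Cyct and Pdha2, where 25.6% of all genes rose) and Gapdhs fell (25.2%). Slc2a3 was the only one to fall from 2 to 3 weeks (16.5%), and from 3 weeks to GS cells Cyct was called higher (29.9%) and Pgk2 lower (17.2%). Against 1 week, 5 were higher at 3 weeks (35.1%) and 3 in GS cells (22.4%), and against 2 weeks Slc2a3 was lower in GS cells (5.18%). The 5 changes at 3 weeks, that of Slc2a3 included (0.55 ± 0.07), all lay under the chemoreceptor median of that comparison (0.60). The 5 became 2, Pdha2 and Slc2a3, without 1 week replicate 2 or without 3 weeks replicate 1, and 3 with quantile normalization, log2(signal + 32), a trended robust eBayes or a fit of the 2 groups alone. These counts of 1 to 5 genes are descriptions and are to be read against those shares.

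**Figure D2:**
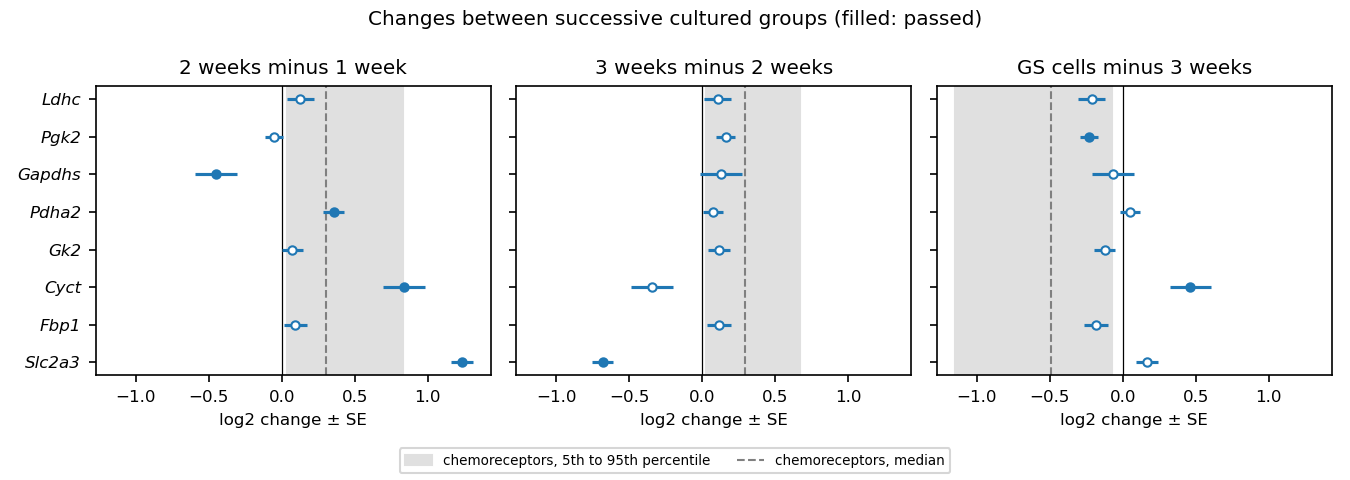
Change of each gene (log2 ± SE, n = 2 arrays per group) in the 3 steps between successive cultured groups, with filled points for an adjusted p under 0.05, a grey band for the 5th to 95th percentile of the chemoreceptor changes and a dashed line for their median. Slc2a3 rises beyond the band at 2 weeks (1.24) and falls outside it at 3 weeks (-0.68).

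The authors' deposited table compares 0 and 3 weeks as a ratio of means. Inverted, that ratio was 83.9 for Fbp1, 66.0 for Gk2, 55.6 for Ldhc, 47.9 for Gapdhs, 24.7 for Pgk2, 14.1 for Slc2a3, 2.73 for Pdha2 and 1.97 for Cyct in the authors' deposited table. The 0 week signals of Pdha2 and Cyct were 228.4 ± 6.67 and 239.5 ± 37.6 (SD, n = 2), against a chemoreceptor 95th percentile of 128.4 to 139.3 on those arrays.

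The somatic counterparts, which do the same step in other cells, moved in both directions. Of 8 counterparts measured on a cluster with 1 symbol, 5 rose in the 1st week (30.3% of all genes rose), Ldha fell (27.5%) and 2 did not pass. From 1 to 2 weeks 6 fell (25.2% of all genes fell), Fbp2 rose (25.6%) and 1 did not pass. Pdha1 was on the array only on clusters shared with another gene and is not reported.

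Pgk1, the X-linked phosphoglycerate kinase, measured 161.9 and 204.5 at 0 weeks and 2608 and 2492 at 1 week, so that it rose 14.0-fold (3.81 ± 0.14, adjusted p = 4.5e-09) as Pgk2 fell. It dropped back to 232.7 and 227.8 at 2 weeks (-3.47 ± 0.14, adjusted p = 2.6e-08), while Pgk2 stayed at 56.5. Slc2a1, the widespread glucose transporter GLUT1, went from 288.9 and 333.2 to 3765 and 3496 in the 1st week (3.55 ± 0.09, adjusted p = 3.6e-10) and to 863.6 and 881.7 in the 2nd (-2.06 ± 0.09, adjusted p = 4e-08). In both weeks Slc2a1 and Slc2a3 moved in opposite directions. Gapdh rose from 5258 and 5283 to 10312 and 9895 (0.94 ± 0.06, adjusted p = 3.6e-07) and came down to 7947 and 7851 (-0.35 ± 0.06, adjusted p = 0.00072). Ldha, the muscle-type lactate dehydrogenase subunit, fell slightly in the 1st week, from 4149 and 4189 to 3126 and 3028 (-0.44 ± 0.08, adjusted p = 0.00077), and strongly in the 2nd, to 620.1 and 672.4 (-2.25 ± 0.08, adjusted p = 1.3e-08). Ldhb, the heart-type subunit, did not pass in the 1st week (0.15 ± 0.09, adjusted p = 0.18) and fell in the 2nd (-1.13 ± 0.09, adjusted p = 3.5e-06). Cycs, the somatic cytochrome c, rose in the 1st week (0.47 ± 0.17, adjusted p = 0.038), when Cyct fell, and did not pass in the 2nd (0.34 ± 0.17, adjusted p = 0.13), when Cyct rose. Gk, the widespread glycerol kinase, rose in the 1st week (0.37 ± 0.06, adjusted p = 0.00058) and fell in the 2nd (-0.47 ± 0.06, adjusted p = 0.00016). Fbp2, the muscle fructose bisphosphatase, rose in the 2nd (0.19 ± 0.07, adjusted p = 0.048). Their group means were 53.4 to 73.8 and 80.7 to 99.3, both below the 95th percentile of the chemoreceptors in every group.

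Several counterparts have near-identical processed copies in the genome, so the clusters were compared. The 3 clusters with the symbol Pgk1 alone changed by 3.75 to 3.81 in the 1st week, and the 4 of Gapdh by 0.79 to 1.10. The 3 of Cycs changed by 0.08 to 0.65, while the 2 of Ldhb gave -0.05 and 0.15. The reported Pgk1 cluster and another of the 3 gave identical changes (3.8083 in the 1st week and -3.4688 in the 2nd). They are thus not separate checks. Cluster positions are not given, so the reported clusters of Pgk1, Gapdh, Ldhb and Cycs may be those of copies. The rises of Pgk1, Gapdh and Slc2a1 came with markers of fibroblasts and mesenchyme, of which 14 of 14 rose in the 1st week (30.3% of all genes rose). The median of these markers was 4.36, and their summed signal 6533 to 7528 at 0 weeks and 66509 to 68207 at 1 week. In the 2nd week 14 of 14 fell (25.2%, median -2.86). Their part in the result was not tested.

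Within each array, the log2 difference between isozyme and counterpart was lower at 1 week than at 0 weeks for all 8 pairs. The change was -7.92 for Slc2a3 minus Slc2a1, -6.20 for Gapdhs minus Gapdh, -8.54 for Pgk2 minus Pgk1, and -5.59 and -6.18 for Ldhc minus Ldha and Ldhb. It was -1.94 for Cyct minus Cycs, -6.61 for Gk2 minus Gk and -6.50 for Fbp1 minus Fbp2. The 2 groups of arrays did not overlap for any pair, but 2 against 2 arrays cannot give an exact two-sided permutation p under 0.333. From 1 to 2 weeks the difference moved back by 3.42 for Pgk2 minus Pgk1, by 3.29 for Slc2a3 minus Slc2a1 and by 2.38 for Ldhc minus Ldha (exact permutation p = 0.333 each). Over that step Pgk2 itself changed by -0.05 and Ldhc by 0.13, neither of which passed, and Slc2a3 by 1.24. From 0 weeks to GS cells all 8 differences stayed lower, by -6.54 (Fbp1 minus Fbp2) to -1.04 (Cyct minus Cycs).

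**Figure D3:**
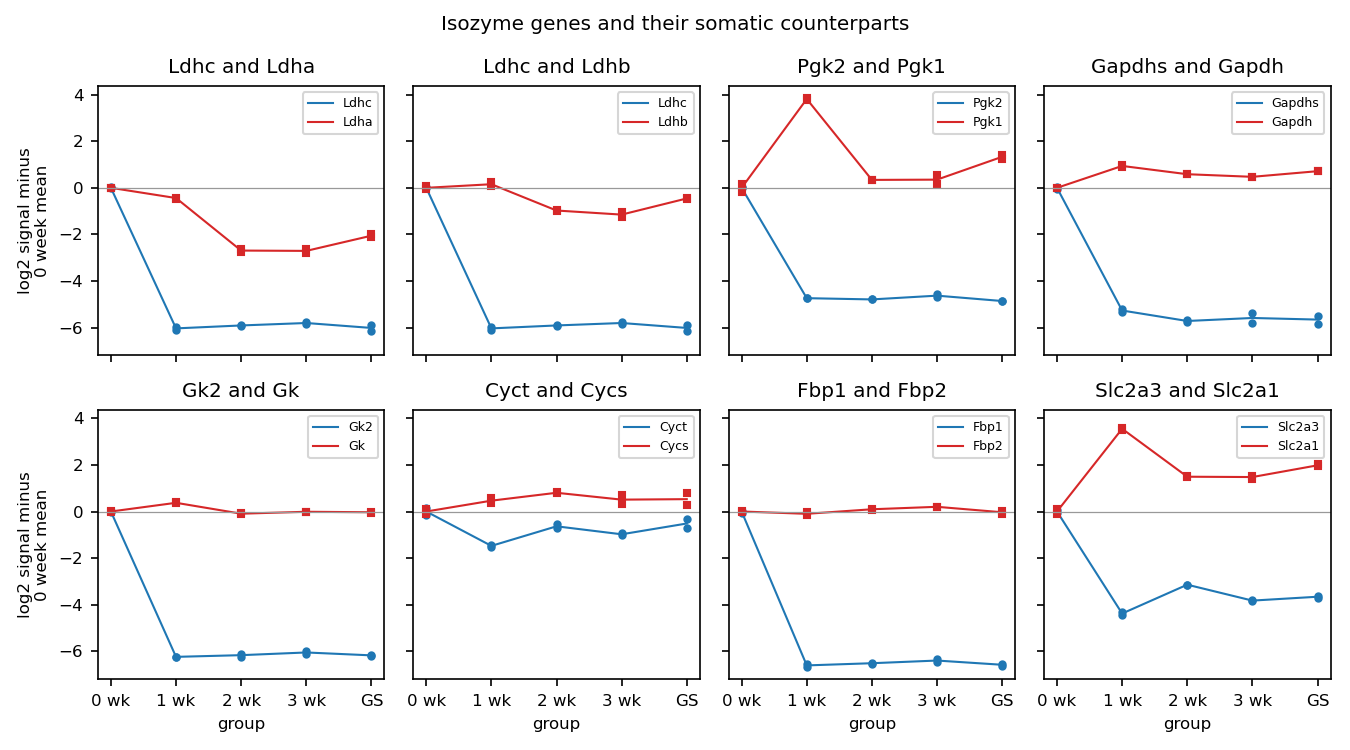
Log2 signal of each isozyme (blue circles) and its somatic counterpart (red squares) on each array, minus that gene's 0 week mean, with lines through the group means. Pgk1 and Slc2a1 rise by 3.81 and 3.55 at 1 week while Pgk2 and Slc2a3 change by -4.73 and -4.37.

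Other genes of germ cell energy metabolism also fell in most cases. Of 30 measured, 26 fell in the 1st week (27.5% of all genes fell), none rose and 4 did not pass. Their median was -2.29 against -0.04 over all genes. Slc2a5, a fructose transporter, fell from 2978 to 68.0 (-5.45 ± 0.10, adjusted p = 7.5e-11). Slc16a7, a transporter of lactate and pyruvate, fell from 2767 to 63.7 (-5.44 ± 0.08, adjusted p = 3.1e-11), and Akap4, a scaffold of the fibrous sheath, from 1815 to 48.5 (-5.22 ± 0.09, adjusted p = 6.5e-11). In the 2nd week 8 of the 30 rose and 8 fell, where 25.6% of all genes rose and 25.2% fell. Slc25a31, which encodes the germ cell ADP/ATP carrier of mitochondria, rose from 234.4 to 1330 (2.51 ± 0.14, adjusted p = 2e-07) and was at 1140 in GS cells against 587.0 in the sorted cells. Ak8, an adenylate kinase, rose from 105.8 to 178.6 (0.76 ± 0.07, adjusted p = 1.4e-05), after 3496 at 0 weeks. Cox7b2, a cytochrome c oxidase subunit gene, rose from 58.6 to 86.3 (0.56 ± 0.10, adjusted p = 0.00074). The changes of Ak8 and Cox7b2 were both within the chemoreceptor range of that step (95th percentile 0.83). Tpi1 (1434 to 422.1), Cox6b2 (371.7 to 124.1) and Pfkp (193.9 to 91.4) fell.

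In the general glycolysis and lactate list more genes rose than fell in the 1st week. In that week 12 of its 22 genes rose (30.3% of all genes), 5 fell (27.5%) and 5 did not pass (median 0.75). In the 2nd 14 fell (25.2%) and 1 rose (25.6%), with a median of -0.69. Besides Pgk1 and Slc2a1, Pgam1 (phosphoglycerate mutase) rose in the 1st week from 444.5 to 1818 (2.03 ± 0.09, adjusted p = 1.6e-08). The falls were led by Eno3 (421.4 to 145.9), Pfkm (480.8 to 181.7) and Bpgm (170.9 to 75.9), all known from muscle or red cells. Aldoc, an aldolase, was the single riser of the 2nd week (153.1 to 399.0).

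Around Pdha2, 12 other genes of the pyruvate dehydrogenase complex, its kinases and phosphatases and the pyruvate carrier gave 4 that rose in the 1st week (30.3% of all genes rose), 3 that fell (27.5%) and 5 that did not pass. Pdk2, a kinase that inhibits the complex, fell from 2105 to 246.0 (-3.10 ± 0.10, adjusted p = 1.9e-09). Pdk4 rose from 97.6 to 414.2 (2.09 ± 0.09, adjusted p = 1.7e-08) and fell back to 82.5 in the 2nd week. Pdk1 rose in both weeks, from 94.2 to 185.1 and to 387.6. Around Gk2 and Fbp1, 16 genes of glucose synthesis and glycerol handling gave 3 that rose in the 1st week, 7 that fell and 6 that did not pass. Over all genes 30.3% rose and 27.5% fell in that week. Aqp7, a channel for water and glycerol, fell from 1123 to 70.6 (-3.99 ± 0.09, adjusted p = 1.9e-10), Aqp9, a related channel, from 309.9 to 72.7, and Gpd2, the mitochondrial glycerol-3-phosphate dehydrogenase, from 966.1 to 271.3.

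Pgk2, Pdha2 and Gk2 belong to a wider set of autosomal copies of X-linked genes. Of the 6 others measured, 4 fell in the 1st week (27.5% of all genes fell) and 2 did not pass (median -1.06). Rpl39l fell from 480.5 to 116.1, Cetn1 from 201.7 to 58.7 and Rpl10l from 774.4 to 336.7. Among 9 X-linked parent genes 8 rose in the 1st week (30.3% of all genes rose) and none fell, and 7 fell in the 2nd week (25.2%). Rpl39l and Rpl10l rose again in the 2nd week (275.9 and 465.8), as did Pdha2 (0.36), while G6pd2 fell (-0.35 ± 0.08, adjusted p = 0.0064) and Pgk2 and Gk2 did not pass. The ribosomal protein genes of this set have many processed copies, and their cluster signals may include them.

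Germ cell stage markers gave the frame for these changes. Over all genes 30.3% rose and 27.5% fell in the 1st week, and 25.6% rose and 25.2% fell in the 2nd. Among 24 meiotic prophase markers 23 fell in the 1st week (median -2.34). In the 2nd week 17 rose and 2 fell. Their median of 0.66 lay within the chemoreceptor range of that step (5th to 95th percentile 0.04 to 0.83). The summed signal of these markers was 20192 to 20357 at 0 weeks, 2740 to 2787 at 1 week and 6286 to 6496 at 2 weeks. The markers moved unevenly in the 2nd week: Stag3 went from 263.9 to 1179 and Sycp1 from 134.4 to 913.8. Hspa2 went from 190.0 to 122.6 and Mybl1 from 282.8 to 117.5. Among 24 spermatid markers 23 fell in the 1st week (median -3.49), and in the 2nd 6 rose and 6 fell, near the shares over all genes. Prm1, a protamine, went from 12990 to 407.8, 126.9, 131.9 and 104.3 in the later groups. Undifferentiated spermatogonia markers rose in 15 of 16 cases in the 2nd week (median 1.12). The isozymes' summed signal was 22631 to 23207 at 0 weeks, 660 to 698 at 1 week, 1019 to 1043 at 2 weeks, 826 to 866 at 3 weeks and 895 to 901 in GS cells. Most of the rise of this sum from 1 to 2 weeks was that of Slc2a3 (208.8 to 491.2), and Gapdhs fell. Of 13 Sertoli cell markers 8 fell and 3 rose in the 1st week, of 9 Leydig cell markers 7 fell and none rose, and of 11 macrophage markers 6 fell and 3 rose.

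**Figure D4:**
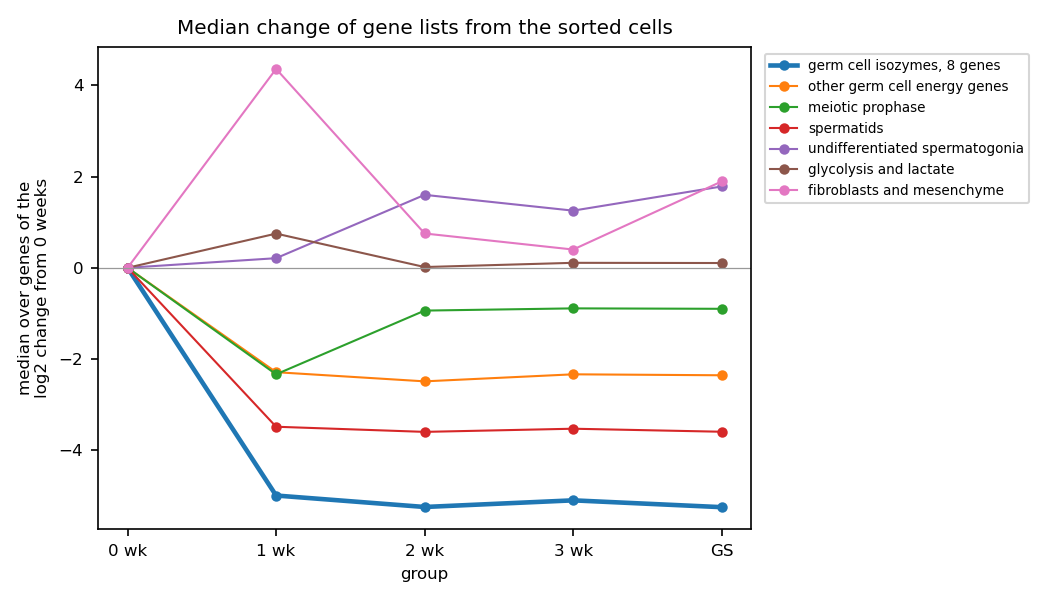
Median over the genes of each list of the log2 change from 0 weeks, by group. The 8 isozymes (thick line) lie at -5.25 to -5.00 and the spermatid list at -3.60 to -3.49 in the later groups, and the meiotic list is at -0.94 at 2 weeks. Where cultured signals lie in the chemoreceptor range a median depends on how bright its genes were at 0 weeks, so the lists have no order.

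The genes whose course was most like that of each isozyme were sought among 6981 genes with a range of group means of at least 1 on the log2 scale, by the root mean square difference of log2 signals over the 10 arrays after centring each gene. The nearest to Ldhc were Pabpc2 (0.096), Ube2d2b and Ms4a14 (0.101), and the nearest to Gk2 were Ms4a20 (0.064), Pabpc2 (0.107) and Ube2d2b (0.114). Pgk2 lay nearest to 1700028P14Rik (0.065) and Rbakdn (0.085), and Fbp1 to Spata4 (0.115), Adam5 (0.119) and Crisp2 (0.135). Gapdhs lay nearest to Cdrt4 (0.123), the transition protein gene Tnp2 (0.133) and 4933411K16Rik (0.134). Pdha2 lay nearest to Lrrc49 (0.072), D1Pas1 (0.074) and Katnal2 (0.087). Cyct had its nearest neighbours farther off, in Tarbp2 (0.149), Pacs1 (0.151) and Kat7 (0.153). Slc2a3 had the most distant ones, in the kinase gene Mak (0.222), Stpg1 (0.252) and Haspin (0.254). Mak measured 1631, 72.5, 126.5, 115.8 and 106.8 over the 5 groups, and Kat7 2036, 779.5, 1215, 1101 and 1373. These distances describe only these 10 arrays, which share 5 conditions. Where the signals after 0 weeks lie in the chemoreceptor range, a distance depends mostly on the size of the fall. A larger distance, as for Cyct and Slc2a3, thus does not show a more particular course.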

How the data were processed

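The deposited intensity values of 28856 transcript clusters, on a linear scale, were taken for all 10 arrays, with annotation release na32 on build mm9 per the file headers. Per the labels' protocols, TRIzol extraction and RNeasy columns gave the total RNA, and the label was biotin. How the authors corrected the background, summarized probes and normalized the deposited signals is not given in the sources used here. In the authors' deposited table the fold is the ratio of 3 week to 0 week means. The 2 arrays per group limit the precision.

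Clusters with 1 gene symbol (22439) were joined to the signals, symbols were updated through the RefSeq gene table (GRCm38.p6, names only), and the brightest cluster per gene was kept (20174 genes). Signals under 1 were to be raised to 1 before log2, and 0 values were. One linear model per gene held the means of the 5 groups (limma 3.58.1, functions lmFit and eBayes, R 4.3.3), with 5 residual and 4.39 prior degrees of freedom, and every adjusted p is from limma. The code was tested on simulated data.

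The 8 genes, their counterparts and the lists were chosen with earlier results of these data known. Named are the 8 genes and their counterparts, up to 3 members per energy list with the largest rise and 3 with the largest fall in the 1st and in the 2nd week, and the 3 nearest genes per isozyme, of which 1 is not reported here. Prm1, Stag3, Sycp1, Hspa2 and Mybl1 were chosen after their values were seen. Alternatives were quantile, median and cyclic loess scaling, log2(signal + 32), a filter on dim genes (12777 kept) and the mean of a gene's clusters. Others were a trended robust eBayes, fits of the groups compared alone, a replicate block and leaving out each array. A further fit held all clusters, with each gene still read at its brightest, so it did not test the choice of cluster.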

Additional observations from a re-analysis of the deposited data

How the results depend on the processing

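The falls of all 8 genes at 1, 2 and 3 weeks kept their direction and passed under each of the 14 alternatives, and those in GS cells did so except that Cyct lost its call in 2 fits that left out an array (7 of 8 passed there). With an array left out, 3 to 4 genes passed from 1 to 2 weeks and 1 from 2 to 3 weeks. From 3 weeks to GS cells 2 genes passed, against 1 with quantile normalization, 0 in a fit of those 2 groups, and 0 to 3 with an array left out: 0 without 3 weeks replicate 1 or GS cells replicate 2, and 1 without 3 weeks replicate 2. The replicate block gave 4. Deviations of same-numbered arrays correlated at 0.31 to 0.584 for 6 pairs of groups (0.547 for 3 weeks with GS cells). For the 4 pairs with 2 weeks they correlated at -0.0668 to -0.0245. Outside 2 weeks, arrays of the same number may thus share a source of spread. The labels do not name it, and the main fit holds no term for it. From 2 to 3 weeks, 2 passed in a fit of those groups against 1. Of the changes that passed in either setting, quantile normalization turned the sign of Slc2a3 from 3 weeks to GS cells (-0.26, which then passed) and of Gk2 (-0.032) and Fbp1 (-0.028) from 1 to 3 weeks, which then did not pass. It also turned Ldhc minus Ldha from 2 to 3 weeks (-0.28, from 0.12). Some changes that passed in neither setting changed sign too, such as Gk2 (0.07 to -0.04) and Fbp1 (0.09 to -0.03) from 1 to 2 weeks. The cause was not tested. Over all comparisons 1059 single-gene values kept their call, 25 gained it, 33 lost it and the 3 named changed sign. The isozyme and counterpart pairs were compared under 2 alternatives. There 44 values moved by less than the spread between arrays, or changed sign with a value inside it. Another 67 moved by more with the same sign, and the 1 named turned with both values beyond the spread. Pgk2 minus Pgk1 in the 1st week was -8.54, against -7.72 with log2(signal + 32). The median of all genes lay within -0.05 to 0.15 in each comparison and scaling. Signals within the chemoreceptor range limit what can be said of changes between cultured groups.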
